A study of Mus musculus with 12 samples.

Results

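C18-4 cells, a mouse line described as spermatogonial stem cells, were compared at baseline with TM4 cells, a mouse line described as Sertoli cells. Baseline means the libraries transfected with shNC, the control hairpin RNA with no muscarinic receptor target. There were 3 C18-4 shNC libraries and 3 TM4 shNC libraries, 6 of the 12 RNA-seq libraries of the study, and the other 6 came from the same lines with shM5, a mix of hairpins against the muscarinic acetylcholine receptor M5. The comparison was made over every gene with a mean of at least 0.5 RPKM across the 6 shNC libraries, which held 11810 of the 17995 genes listed. RPKM scales the read number for transcript length and library size, so levels of different genes can be set side by side.

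C18-4 cells were grown in DMEM/F12 and TM4 cells in DMEM, both with fetal bovine serum, so the line and its medium cannot be told apart. Each cell type stood as 1 immortal line, and nothing in the sample descriptions says that the 3 libraries of a line came from separate cultures. The p-values therefore measure the spread between these libraries, which may be technical. In the testis, spermatogonia are the germ cells that renew themselves and feed spermatogenesis, and Sertoli cells are the somatic cells that hold them. Sertoli cells supply the growth factors GDNF and KIT ligand, and spermatogonia read them through the receptors GFRA1 with RET and KIT. Sertoli cells are marked by the transcription factors WT1, SOX9 and GATA4 and, before puberty, by anti-Müllerian hormone.

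Replicate 3 stood apart in both lines. On the log2(RPKM + 0.1) scale, over all genes tested, the root mean square difference was 0.20 between C18-4 replicates 1 and 2 and 0.44 and 0.42 from these to replicate 3. In TM4 cells it was 0.21 between replicates 1 and 2 and 0.63 and 0.64 from these to replicate 3. The library labelled TM4 shNC 3 was nearer to the 3 TM4 shM5 libraries, at 0.27, 0.26 and 0.23, than to its own group. Replicates 1 and 2, in turn, differed little beyond the sampling of reads. With read sampling alone, the squared difference per read would not depend on the read number, and from the least to the most read sixth of genes it rose 4.35 times in C18-4 cells and 2.62 times in TM4 cells, against 39.4 and 38.4 times between replicates 1 and 3. Between the lines the difference was 1.81 to 1.94 in all 9 pairs of libraries, far above the spread within a line. All 6 libraries were kept, and values without replicate 3 are given where it decided a result.

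A gene was called where limma gave a Benjamini-Hochberg adjusted p of at most 0.001 and a difference of at least 1 on the log2(RPKM + 0.1) scale, 0.1 being the pseudocount. All log2 differences below are C18-4 minus TM4 on this scale, on which changes of low genes come out too small. In all, 1511 genes were higher in C18-4 cells (12.8% of those tested) and 754 were higher in TM4 cells (6.38%). All 3 libraries of the higher line lay above all 3 of the other for each of these 2265 genes. Over all genes tested, such separation was found with C18-4 on top for 4639 genes (39.3%) and with TM4 on top for 2875 genes (24.3%). Of the called genes, 66.7% were higher in C18-4 cells, and 55.5% were so after quantile normalization, which moved the median difference of all genes from 0.15 to 0.00. The counts rose to 2046 and 1078 without TM4 shNC replicate 3. They were 819 and 370 when replicates 1 and 2 of each line were averaged and used as 1 library, an alternative chosen after the data were seen.

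Many differences were large. Of the genes higher in C18-4 cells, 782 differed by at least 3 and 309 by at least 5 on the log2 scale, and in TM4 cells these numbers were 365 and 142. The other line was listed at 0 in all 3 libraries for 238 and 82 of the called genes. At the other end, 5476 of the 9545 genes that were not called differed by less than 0.5, and 1224 differed by at least 1 without reaching the adjusted p. Of 79 ribosomal protein genes, 77 were above 0 in all 12 libraries, and 2 of these 77 were called, with a median log2 difference of -0.06. The 6 libraries summed to between 512593 and 540231 RPKM. The value of 1 read was taken from the steps between low values. Relative to each gene's mean step over the libraries with reads, its median varied between 0.959 and 1.026. The libraries therefore differed little in depth.

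**Figure D1:**
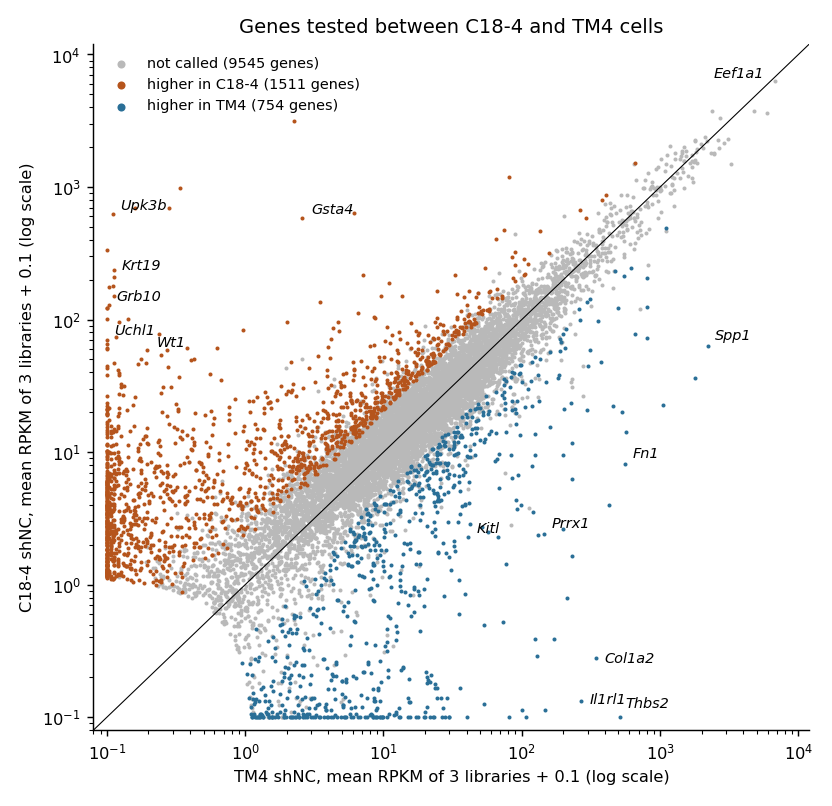
Mean RPKM of each of the 11810 genes tested in C18-4 shNC libraries (vertical axis) against TM4 shNC libraries (horizontal axis), n = 3 each, both axes logarithmic with the pseudocount of 0.1 added. The 1511 genes called higher in C18-4 cells lie above the diagonal, the 754 called higher in TM4 cells lie below it, and many of both lie along the edge where the other line is at or near 0.

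Genes at 20 RPKM or far more in one line and at or near 0 in the other had the largest differences, and 3 are given here for each line. Upk3b, a urothelial and mesothelial membrane protein, was at 595, 590 and 697 RPKM in the C18-4 libraries and at 0, 0.03 and 0 RPKM in the TM4 libraries (log2 difference 12.49, SE 0.16, limma adjusted p = 4.91e-08). Hspb1, a small heat shock protein, was at 359, 346 and 293 RPKM in C18-4 cells and listed at 0 in all 3 TM4 libraries. Grb10, an imprinted adaptor protein that dampens insulin receptor signalling, was at 164, 173 and 194 RPKM in C18-4 cells and at 0.01, 0 and 0 RPKM in TM4 cells. These 3 genes were high in every C18-4 library, and no TM4 library came near them. In the other direction, Thbs2, the matricellular protein thrombospondin 2, was listed at 0 in all 3 C18-4 libraries and was at 602, 612 and 323 RPKM in TM4 cells (log2 difference -12.26, SE 0.26, limma adjusted p = 1.94e-07). Il1rl1, the receptor of interleukin 33, was at 0.09, 0 and 0.01 RPKM in C18-4 cells and at 305, 308 and 185 RPKM in TM4 cells. Epb41l3, a membrane skeleton protein, was at 0, 0.02 and 0.02 RPKM in C18-4 cells and at 145, 145 and 150 RPKM in TM4 cells. TM4 replicate 3 was the lowest TM4 library for Thbs2 and Il1rl1 and the highest for Epb41l3, and the groups did not overlap for any of the 3.

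The promoters of these 6 genes are shown because the genes stand at the 2 ends of the comparison and because their promoters range from CpG-poor to CpG-rich. The sequences are 300 bases around the start of the gene from RefSeq on GRCm38.p6, written 5′ to 3′ on the strand of the gene, with each CG dinucleotide in capitals. They are reference sequences and were not read from these cells. The Upk3b promoter lies at chr5:136038246-136038545 on the plus strand and holds 2 CG. The Hspb1 promoter lies at chr5:135887669-135887968 on the plus strand and holds 14 CG. The Grb10 promoter lies at chr11:12037371-12037670 on the minus strand and holds 45 CG. The Thbs2 promoter lies at chr17:14694213-14694512 on the minus strand and holds 4 CG. The Il1rl1 promoter lies at chr1:40429320-40429619 on the plus strand and holds 1 CG. The Epb41l3 promoter lies at chr17:69075427-69075726 on the plus strand and holds 16 CG.
Upk3b: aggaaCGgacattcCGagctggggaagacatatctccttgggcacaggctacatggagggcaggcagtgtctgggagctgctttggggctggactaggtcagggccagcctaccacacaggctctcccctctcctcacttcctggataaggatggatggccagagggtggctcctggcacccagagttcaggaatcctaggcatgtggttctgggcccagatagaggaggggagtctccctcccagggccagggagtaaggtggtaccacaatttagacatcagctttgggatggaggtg
Hspb1: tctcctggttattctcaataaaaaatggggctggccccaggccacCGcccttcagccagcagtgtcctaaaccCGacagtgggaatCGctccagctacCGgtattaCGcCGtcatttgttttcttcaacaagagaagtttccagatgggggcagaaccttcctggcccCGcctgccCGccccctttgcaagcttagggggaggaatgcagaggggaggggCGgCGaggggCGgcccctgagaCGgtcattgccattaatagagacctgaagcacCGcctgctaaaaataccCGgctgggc
Grb10: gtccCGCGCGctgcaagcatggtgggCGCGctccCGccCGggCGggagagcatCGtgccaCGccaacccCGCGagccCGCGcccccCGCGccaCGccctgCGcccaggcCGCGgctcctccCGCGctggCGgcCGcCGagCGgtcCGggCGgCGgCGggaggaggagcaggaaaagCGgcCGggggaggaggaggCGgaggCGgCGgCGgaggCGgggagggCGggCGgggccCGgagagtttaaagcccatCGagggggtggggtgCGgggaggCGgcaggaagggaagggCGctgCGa
Thbs2: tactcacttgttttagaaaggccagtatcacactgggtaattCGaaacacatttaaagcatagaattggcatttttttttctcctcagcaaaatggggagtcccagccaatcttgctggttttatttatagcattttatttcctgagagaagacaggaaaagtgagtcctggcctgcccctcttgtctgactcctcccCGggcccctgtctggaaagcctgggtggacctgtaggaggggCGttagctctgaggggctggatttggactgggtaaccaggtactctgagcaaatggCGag
Il1rl1: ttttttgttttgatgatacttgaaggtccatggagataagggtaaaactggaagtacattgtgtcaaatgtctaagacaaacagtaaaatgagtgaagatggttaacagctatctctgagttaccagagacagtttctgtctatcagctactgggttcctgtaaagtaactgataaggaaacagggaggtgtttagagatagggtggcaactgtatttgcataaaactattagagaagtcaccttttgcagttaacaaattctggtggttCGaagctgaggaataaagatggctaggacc
Epb41l3: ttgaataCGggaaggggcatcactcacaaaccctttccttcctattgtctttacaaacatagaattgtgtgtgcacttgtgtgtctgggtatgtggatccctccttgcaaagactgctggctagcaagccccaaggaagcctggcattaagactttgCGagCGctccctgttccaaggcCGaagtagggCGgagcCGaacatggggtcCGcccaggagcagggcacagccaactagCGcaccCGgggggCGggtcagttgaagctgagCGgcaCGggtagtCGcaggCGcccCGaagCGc
Among these 6 the ratio of observed CG to that expected from the C and G content was 0.08 for Upk3b, 0.55 for Hspb1 and 0.97 for Grb10, and 0.23 for Thbs2, 0.10 for Il1rl1 and 0.63 for Epb41l3. Genes close to absent from one line thus had promoters of both kinds.

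Across the 9466 tested genes with a promoter in the table, 74.9% had a CpG ratio of at least 0.6. The share was 63.3% of 1131 promoters of genes higher in C18-4 cells, 56.2% of 550 of genes higher in TM4 cells and 77.9% of 7785 of genes that were not called. The letters TGANTCA, with any base at N, cover the AP-1 elements TGAGTCA and TGACTCA and also other spellings. They were found on either strand in 4.24% of promoters of genes higher in C18-4 cells and in 8.36% of those higher in TM4 cells. They were in 4.59% of promoters of genes not called and in 7.93% of all 27025 promoters of this length. The letters TATAAA were found on either strand in 7.07%, 12.2%, 6.11% and 14.2% of the same 4 sets, in the same order, and neither motif contains the other. A match describes the letters of these windows and does not show a binding site.

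Of the 15 genes with the largest differences toward C18-4 cells, 4 have predicted names and are left out here. Krt19, a keratin of simple epithelia, was at 198, 190 and 236 RPKM in C18-4 cells against 0, 0 and 0.04 RPKM in TM4 cells. Cd24a, a small surface glycoprotein, was at 211, 207 and 117 RPKM against 0.03, 0 and 0 RPKM. Efemp1, a matrix glycoprotein, was at 135, 135 and 178 RPKM against 0, 0 and 0.04 RPKM. By the same measure Upk1b, a uroplakin, Cyp1b1, a cytochrome P450, Igfbp2, an insulin-like growth factor binding protein, and Uchl1, a ubiquitin hydrolase also used as a spermatogonial marker, differed by 10.25, 10.28, 10.25 and 9.97 on the log2 scale. Zfp972, a zinc finger gene, was at 2271, 2508 and 4651 RPKM in C18-4 cells and at 1.82, 2.32 and 2.33 RPKM in TM4 cells, a 1457-fold ratio of means. Genes of this family have close copies, so this value is uncertain, as are those of 131 genes with predicted names among the 1511.

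Among the 15 genes with the largest differences toward TM4 cells was Col1a2, the second chain of type I collagen, at 306, 297 and 425 RPKM in TM4 cells and at 0.17, 0.19 and 0.18 RPKM in C18-4 cells, a 1903-fold ratio of means. Nrn1, a GPI-anchored neuritin, was at 110, 107 and 103 RPKM in TM4 cells and listed at 0 in all 3 C18-4 libraries. Grem1, a secreted inhibitor of BMPs, was at 99.0, 103 and 41.7 RPKM in TM4 cells and again listed at 0 in C18-4 cells. Fgf7, a growth factor that mesenchymal cells send to epithelia, was at 171, 175 and 168 RPKM in TM4 cells against 0.23, 0.33 and 0.31 RPKM in C18-4 cells. Cd34, a sialomucin of progenitor and stromal cells, was at 137, 139 and 113 RPKM against 0.21, 0.15 and 0.21 RPKM. The other genes of the 15 were Ptpn5, a protein tyrosine phosphatase, Apbb1ip, an intracellular adaptor, Enpp2, the secreted enzyme autotaxin, Ly6a, Tmem45a, Tprg and a predicted gene. The libraries of the lines did not overlap for any of these genes.

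The identity of C18-4 cells was then compared with markers of spermatogonia and germ cells, and the defining ones were absent or low. Gfra1, the GDNF co-receptor, was at 0.21, 0.17 and 0.34 RPKM in C18-4 cells and at 0.08, 0.05 and 0.04 RPKM in TM4 cells, below the filter. Ddx4, the germ cell RNA helicase, was at 0.02, 0 and 0.02 RPKM in C18-4 cells and listed at 0 in TM4 cells. Dazl, a germ cell RNA-binding protein, was at 0, 0.04 and 0.02 RPKM in C18-4 cells and listed at 0 in TM4 cells. Zbtb16, Ret, Kit and Stra8 were also under the filter. Of 29 measured markers of undifferentiated spermatogonia 14 could be tested. Of these, 5 were higher in C18-4 cells (35.7%, against 12.8% of all genes) and 4 in TM4 cells (28.6%, against 6.38%). The latter count was 2 without C18-4 replicate 1. The summed level of the 29 markers was 468 to 511 RPKM in C18-4 libraries and 562 to 628 RPKM in TM4 libraries.

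Among the spermatogonial markers that were higher in C18-4 cells, Pou3f1, a POU transcription factor, was at 10.2, 10.9 and 9.39 RPKM and listed at 0 in all 3 TM4 libraries. Id4, an inhibitor of helix-loop-helix factors, was at 3.38, 3.04 and 1.64 RPKM against 0.04, 0 and 0.11 RPKM, and its call was lost under 3 of 16 other settings. Both were separated from the TM4 libraries in every library. In TM4 cells, 4 markers of the same list stood higher. Itga6, the laminin receptor subunit used to sort spermatogonia, was at 17.4, 17.7 and 18.7 RPKM in TM4 cells and at 4.95, 4.87 and 5.21 RPKM in C18-4 cells (log2 difference -1.82, SE 0.11, limma adjusted p = 1.22e-05). Bcl6b, a GDNF-induced repressor, was at 3.56, 3.93 and 9.41 RPKM in TM4 cells and at 0.02, 0 and 0 RPKM in C18-4 cells. Etv5, an ETS factor downstream of FGF and GDNF, differed by -1.53, but not without C18-4 replicate 1. Foxo1 differed by -1.89, and its call was lost without replicate 1 or 2 of either line.

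Of 32 measured general germ cell genes, 6 passed the filter. Tex19.1, Piwil2 and Tex15 were near 0 in TM4 cells and could pass it only through C18-4 cells, so no count of calls is given. The summed level of the 32 genes was 67.8 to 94.3 RPKM in C18-4 libraries and 4.23 to 5.54 RPKM in TM4 libraries. Most of it came from Tex19.1, a mammal-specific germline gene that restrains transposons, at 82.2, 77.4 and 51.6 RPKM in C18-4 cells and listed at 0 in all 3 TM4 libraries (log2 difference 9.43, SE 0.21, limma adjusted p = 2.1e-07). Piwil2, which binds piRNAs, was at 2.70, 3.29 and 4.71 RPKM against 0.03, 0.05 and 0.03 RPKM, a 97.3-fold ratio. Tex15, which acts in the piRNA pathway and in recombination, was at 2.04, 1.86 and 2.58 RPKM against 0.01, 0 and 0 RPKM. Stag3, a meiotic cohesin subunit that was not on the list and was picked after its values were seen, was at 41.6, 44.0 and 54.3 RPKM against 0, 0.02 and 0.02 RPKM. C18-4 cells thus held a few germline transcripts at clear levels while Ddx4 and Dazl were near 0.

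Several defining Sertoli markers were higher in C18-4 cells or near 0 in both lines. Wt1, the Wilms tumour factor that Sertoli cells keep throughout life, was at 62.1, 59.7 and 53.9 RPKM in C18-4 cells and at 0.06, 0.08 and 0.15 RPKM in TM4 cells (log2 difference 8.24, SE 0.20, limma adjusted p = 2.7e-07). The ratio of means was 606-fold in favour of the line labelled spermatogonial. Clu, the secreted chaperone clusterin, was at 5.55, 6.02 and 10.5 RPKM in C18-4 cells and at 0.04, 0.07 and 0 RPKM in TM4 cells. Sox8, a relative of Sox9, was at 1.90, 1.93 and 1.89 RPKM in C18-4 cells and listed at 0 in TM4 cells. Amh, anti-Müllerian hormone, was at 0.04, 0.10 and 0.12 RPKM in C18-4 cells and 0.08, 0.08 and 0.15 RPKM in TM4 cells. Gata4 was at 6.03, 5.93 and 7.84 RPKM against 12.5, 11.5 and 5.26 RPKM, with overlapping groups and an adjusted p of 0.265 from limma.

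Of 44 measured Sertoli markers 25 could be tested, of which 5 were higher in C18-4 cells and 11 in TM4 cells, with a median of -1.76 relative to all genes tested. Their summed level was 709 to 848 RPKM in C18-4 libraries and 994 to 1012 RPKM in TM4 libraries. The members higher in TM4 cells were led by secreted factors. Kitl, the KIT ligand, was at 49.5, 49.4 and 22.7 RPKM in TM4 cells and at 2.15, 2.24 and 2.21 RPKM in C18-4 cells, an 18.4-fold ratio. Inhbb, the activin and inhibin βB subunit, was at 15.9, 16.8 and 11.97 RPKM against 0.59, 0.52 and 0.69 RPKM. Fst, the activin antagonist follistatin, was at 9.92, 11.1 and 10.5 RPKM against 0.28, 0.35 and 0.18 RPKM, a 39.0-fold ratio. These 3 were separated in every library. Gdnf was at 9.67, 8.90 and 4.59 RPKM in TM4 cells and at 0.62, 0.74 and 1.14 RPKM in C18-4 cells, and its call was lost when any library except TM4 replicate 3 was left out. Sox9 was at 1.74, 1.13 and 1.19 RPKM in TM4 cells and at 0.01, 0.01 and 0 RPKM in C18-4 cells.

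In both lines the label and several defining markers therefore disagreed, and the lines are called here by their names only. Whether the cells kept, lost or never had the state of their source was not tested.

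**Figure D2:**
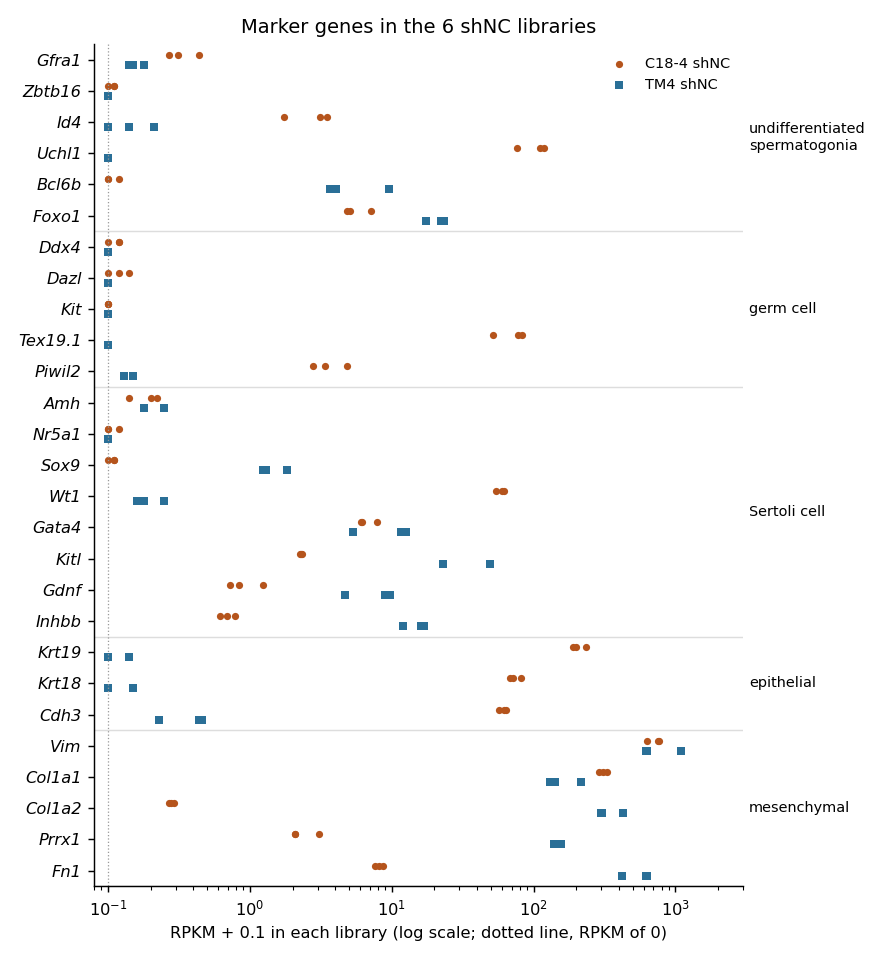
RPKM of marker genes in each of the 6 shNC libraries on a logarithmic horizontal axis with 0.1 added, with circles for C18-4 and squares for TM4 libraries. Wt1 and Tex19.1 are high in the 3 C18-4 libraries and at or near 0 in TM4 cells, Kitl, Gdnf and Inhbb are higher in the 3 TM4 libraries, and the defining germ cell gene Ddx4 lies near 0 in both.

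The 22 measured epithelial genes summed to 331 to 394 RPKM in C18-4 libraries and to 0.59 to 0.70 RPKM in TM4 libraries. Of these, 7 passed the filter, and as the list is near 0 in TM4 cells they could pass it only through C18-4 cells, so no count of calls is given. Krt18, the partner of Krt8 in simple epithelia, was at 71.8, 68.3 and 81.4 RPKM in C18-4 cells against 0.05, 0 and 0 RPKM. Cdh3, P-cadherin, was at 57.3, 61.8 and 64.3 RPKM against 0.36, 0.34 and 0.13 RPKM, a 221-fold ratio. Esrp2, an epithelial splicing regulator, was at 2.54, 2.73 and 3.08 RPKM against 0.08, 0.07 and 0.04 RPKM. Cdh1, E-cadherin, was under the filter in this comparison, as were Grhl2, Cldn3, Cldn4 and Cldn7. Among 30 measured intermediate filament genes, 14 were tested. Keratins near 0 in TM4 cells, such as Krt18 and Krt19, could pass the filter only through C18-4 cells, so no count of calls is given. Vim, the mesenchymal filament vimentin, was at 769, 748 and 633 RPKM in C18-4 cells and at 631, 620 and 1101 RPKM in TM4 cells, with overlapping groups and a log2 difference of -0.08 (SE 0.23, limma adjusted p = 0.784). Krt18 and Krt19 were thus high in C18-4 cells beside vimentin levels that lay within the range of the TM4 libraries. The keratin Krt80 had the higher mean in TM4 cells, 25.1 RPKM against 15.3 RPKM in C18-4 cells (log2 difference -0.72, not called).

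Junction genes followed in part. Cldn15, a claudin of tight junctions, was at 5.83, 6.30 and 8.60 RPKM in C18-4 cells and at 0.14, 0.07 and 0.26 RPKM in TM4 cells, a 44.1-fold ratio. Among 16 tight junction genes tested, 4 were higher in C18-4 cells (25.0%, against 12.8% of all genes) and 1 in TM4 cells (6.25%, against 6.38%). The call in TM4 cells was lost without replicate 1 or 2 of either line. Cdh2, N-cadherin, which joins Sertoli and germ cells in the testis, was at 108, 108 and 123 RPKM in C18-4 cells and at 48.2, 46.8 and 50.5 RPKM in TM4 cells, a 2.33-fold ratio. Cdh11, a mesenchymal cadherin, went the other way, with 126, 131 and 102 RPKM in TM4 cells against 3.34, 3.32 and 3.72 RPKM in C18-4 cells. Of 18 cadherins and catenins tested, 6 were higher in C18-4 cells (33.3%) and 2 in TM4 cells (11.1%). The latter count was 4 without TM4 replicate 3.

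Of 28 mesenchymal markers tested, 11 were higher in TM4 cells (39.3%, against 6.38% of all genes) and 4 in C18-4 cells (14.3%, against 12.8%). The other 13 were not called, and the median was -0.93 relative to all genes. Without TM4 replicate 3 the count in C18-4 cells was 7. Prrx1, a homeobox factor of limb and body wall mesenchyme, was at 138, 143 and 155 RPKM in TM4 cells and at 1.99, 1.98 and 2.99 RPKM in C18-4 cells, a 62.7-fold ratio. Fn1, fibronectin, was at 627, 624 and 421 RPKM in TM4 cells and at 7.55, 8.58 and 8.09 RPKM in C18-4 cells, a 69.0-fold ratio. Ly6a, the stem cell antigen Sca-1, was at 177, 182 and 280 RPKM against 0.44, 0.44 and 1.20 RPKM. Lox, which crosslinks collagen, was among those higher in C18-4 cells, at 113, 111 and 62.6 RPKM in C18-4 cells and at 0, 0.03 and 0.04 RPKM in TM4 cells.

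The matrix genes divided by kind. Of 16 basement membrane genes tested, 9 were higher in C18-4 cells (56.2%, against 12.8% of all genes) and 0 in TM4 cells (against 6.38%). In TM4 cells 2 were higher at an unadjusted limma p under 0.05, and the same number was called without TM4 replicate 3. The median was 1.35 relative to all genes. Lama5, a laminin chain of epithelial basement membranes, was at 30.4, 34.6 and 48.6 RPKM in C18-4 cells and at 0.02, 0.03 and 0.02 RPKM in TM4 cells. Nid2, the linker nidogen 2, was at 46.8, 48.3 and 55.2 RPKM against 0.07, 0.07 and 0.09 RPKM. Lama5 and Nid2 could thus pass the filter only through C18-4 cells. Sparc, a collagen-binding matricellular protein, was at 1192, 1179 and 1209 RPKM in C18-4 cells and at 64.9, 63.6 and 114 RPKM in TM4 cells, a 14.7-fold ratio. Proteoglycans and matricellular proteins leaned the other way. Of 35 tested, 12 were higher in TM4 cells (34.3%) and 6 in C18-4 cells (17.1%). The count in TM4 cells was 7 without C18-4 replicate 1. Spp1, osteopontin, was at 2369, 2473 and 1825 RPKM in TM4 cells and at 64.3, 61.2 and 65.4 RPKM in C18-4 cells, a 34.9-fold ratio. Bgn, the proteoglycan biglycan, was at 642, 617 and 706 RPKM in TM4 cells against 68.5, 68.8 and 95.1 RPKM.

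The type I collagen chains did not move together. Col1a1, the first chain, was at 308, 327 and 287 RPKM in C18-4 cells and at 142, 131 and 216 RPKM in TM4 cells. Its log2 difference of 0.95 missed the call (SE 0.19, limma adjusted p = 0.00527), and it was called without TM4 shNC replicate 3. Col1a2 was near 0 in C18-4 cells, as given above. In C18-4 cells the Col1a1 level thus stood without a matching Col1a2 level, while in TM4 cells both chains were above 130 RPKM in every library. Among 28 matrix proteases and inhibitors tested, 9 were higher in TM4 cells (32.1%, against 6.38% of all genes). In C18-4 cells 5 were higher (17.9%, against 12.8%). Mmp3, stromelysin 1, was at 19.2, 18.4 and 28.8 RPKM in TM4 cells against 0.04, 0.11 and 0.18 RPKM, and Timp3, a matrix-bound inhibitor of metalloproteases, was at 122, 127 and 155 RPKM in C18-4 cells against 3.55, 4.17 and 2.47 RPKM.

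**Figure D3:**
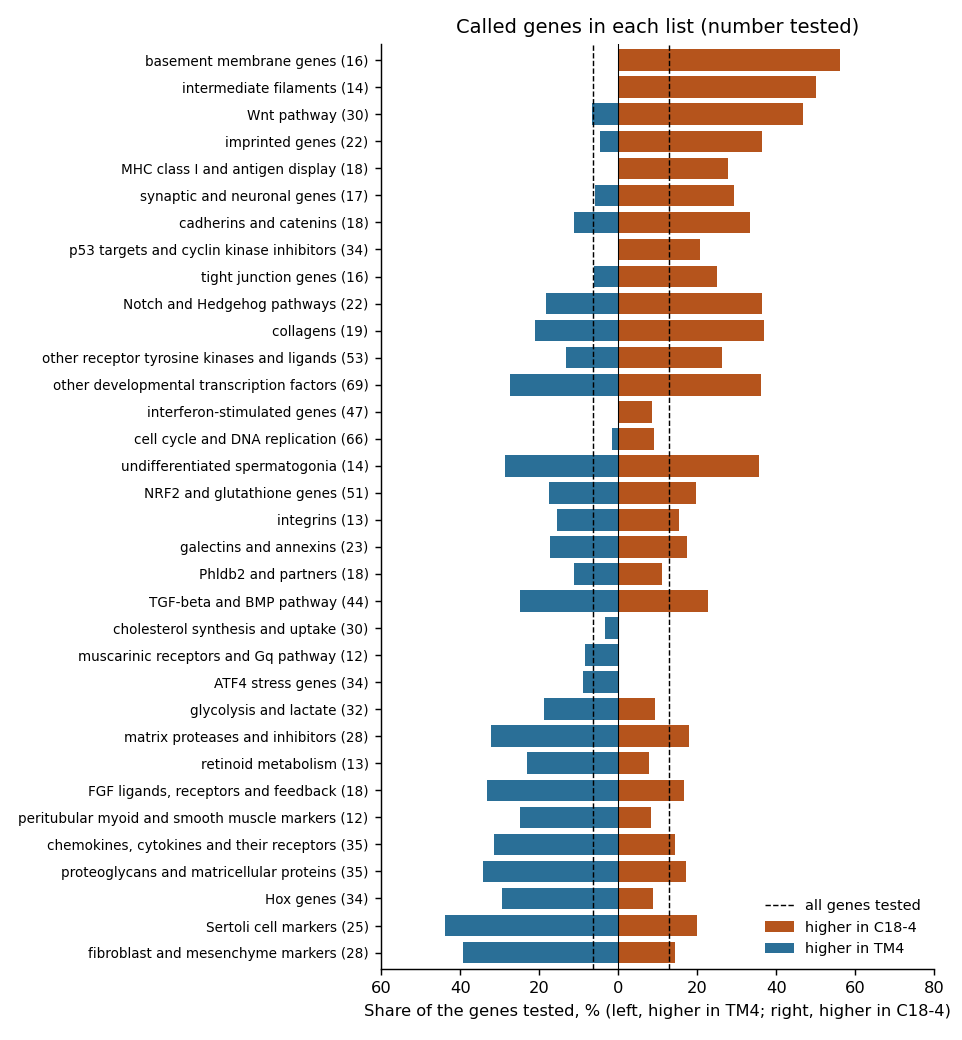
For each gene list with at least 12 genes tested, the percentage of these called higher in C18-4 cells (bars to the right) and higher in TM4 cells (bars to the left), with the percentages over all genes tested, 12.8% and 6.38%, as dashed lines. Basement membrane genes (56.2%) and intermediate filaments reach farthest to the C18-4 side, and Sertoli markers (44.0%) and fibroblast markers (39.3%) to the TM4 side. The bars of basement membrane genes and intermediate filaments include genes nearly absent from TM4 cells, such as Lama5, Nid2, Krt18 and Krt19. These genes could pass the filter only through C18-4 cells, so their direction was fixed in advance and their part of the bars is not a result. Bars of other lists can include such genes too.

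Among growth factors the lines expressed different ligands. Of 18 FGF genes tested, 3 were higher in C18-4 cells (16.7%, against 12.8% of all genes) and 6 in TM4 cells (33.3%, against 6.38%). Fgf5, a ligand best known from the hair cycle, was at 16.7, 18.1 and 13.5 RPKM in C18-4 cells and listed at 0 in TM4 cells. Fgf10, a mesenchymal ligand related to Fgf7, was at 14.4, 14.9 and 11.8 RPKM in TM4 cells against 0.15, 0.09 and 0.18 RPKM. Fgfr1, a receptor, was at 43.9, 43.1 and 37.6 RPKM in TM4 cells and at 3.56, 4.53 and 3.98 RPKM in C18-4 cells, a 10.3-fold ratio. Hgf, hepatocyte growth factor, was at 19.7, 21.6 and 17.8 RPKM in TM4 cells and listed at 0 in all 3 C18-4 libraries. Met, its receptor, was at 34.5, 35.5 and 35.8 RPKM in C18-4 cells and at 15.6, 14.6 and 21.3 RPKM in TM4 cells, and at an adjusted p of 0.00124 from limma it was not called except without TM4 shNC replicate 3 and under 3 other settings. Pdgfb, a platelet-derived growth factor chain, was at 11.5, 10.3 and 11.99 RPKM in C18-4 cells against 0.01, 0 and 0.02 RPKM. Pdgfra, a receptor for it, was at 11.9, 12.6 and 27.1 RPKM in TM4 cells against 1, 1.13 and 1.85 RPKM, and its call was lost when any C18-4 library was left out.

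Bmp4, Bmp6 and several Wnt ligands were higher in C18-4 cells. Bmp4 was at 18.2, 18.9 and 25.4 RPKM in C18-4 cells and listed at 0 in all 3 TM4 libraries. Bmp6 was at 12.9, 12.8 and 13.7 RPKM against 0.08, 0 and 0 RPKM. Id3, a common target of BMP signalling, was at 102, 99.2 and 87.9 RPKM in C18-4 cells and 22.5, 22.3 and 26.2 RPKM in TM4 cells, a 4.07-fold ratio. Grem1, the BMP inhibitor, lay on the TM4 side as given above. Over the whole TGF-β and BMP pathway 10 of 44 tested were higher in C18-4 cells (22.7%, against 12.8% of all genes) and 11 in TM4 cells (25.0%, against 6.38%). The 30 Wnt pathway genes tested had a median of 1.45 relative to all genes. Of these, 14 were higher in C18-4 cells (46.7%) and 2 in TM4 cells (6.67%). The first count was 9 without C18-4 replicate 1, and the second was 1 whichever library was left out. Wnt4, a ligand of the developing gonad and kidney, was at 9.56, 8.57 and 8.58 RPKM in C18-4 cells and at 0.02, 0.03 and 0 RPKM in TM4 cells. Wnt11 was at 10.9, 10.6 and 12.6 RPKM against 0, 0.05 and 0 RPKM. Dkk2, a secreted modulator of Wnt receptors, was listed at 0 in C18-4 cells and was at 17.2, 16.8 and 17.4 RPKM in TM4 cells.

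Of 22 genes of the Notch and Hedgehog pathways tested, 8 were higher in C18-4 cells (36.4%, against 12.8% of all genes). In TM4 cells 4 were higher (18.2%, against 6.38%). The count in TM4 cells was 2 without replicate 1 or 3 of C18-4 cells or 1 or 2 of TM4 cells. Jag2, a Notch ligand, was at 4.54, 4.65 and 7.98 RPKM in C18-4 cells against 0.06, 0.12 and 0.10 RPKM, and Hey1, a Notch target, was at 3, 2.78 and 2.59 RPKM against 0.03, 0.03 and 0.09 RPKM. Hes1, another target, was at 18.8, 22.1 and 17.7 RPKM in C18-4 cells and 2.95, 2.29 and 6.11 RPKM in TM4 cells, and its call was lost under 11 of 17 other settings, among them the removal of any library except TM4 replicate 3. The 4 genes higher in TM4 cells were Notch2, a Notch receptor, and the Hedgehog members Ptch1, Gli1 and Gli2, with log2 differences of -1.52, -1.70, -2.03 and -1.96. The call of Ptch1 was lost when any library except TM4 replicate 3 was left out, and that of Gli1 under 5 of 16 other settings, 4 of them the removal of 1 library. Cdon, a Hedgehog co-receptor, was higher in C18-4 cells by 3.25 on the log2 scale.

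Chemokines and cytokines were higher in TM4 cells in 11 of 35 genes tested (31.4%, against 6.38% of all genes) and in C18-4 cells in 5 (14.3%, against 12.8%). Their median was -2.57 relative to all genes. Without replicate 3 of both lines 22 were higher in TM4 cells, and without TM4 replicate 3 alone 19. Over all 11810 genes these fits called 1468 and 1078 higher in TM4 cells. The first of them rests on replicates 1 and 2, which differed little beyond the sampling of reads. The count in C18-4 cells was 2 when any 1 C18-4 library was left out and 3 without TM4 replicate 2. Il33, an alarmin cytokine, was at 211, 218 and 162 RPKM in TM4 cells and at 2.66, 2.16 and 2.72 RPKM in C18-4 cells, a 78.4-fold ratio. Its receptor Il1rl1 was, as given above, also high in TM4 cells. Cxcl1, a neutrophil chemokine, was at 446, 466 and 454 RPKM in TM4 cells against 20.8, 22.2 and 23.3 RPKM, a 20.6-fold ratio. Il6 was at 88.6, 92.9 and 36.6 RPKM against 0.66, 0.24 and 0.37 RPKM. Cxcl12 was at 12.4, 13.4 and 12.97 RPKM in TM4 cells against 0.02, 0.03 and 0 RPKM, and its receptor Ackr3 was at 17.6, 18.7 and 25.0 RPKM against 0, 0 and 0.06 RPKM. Both members of the Il33 pair and of the Cxcl12 pair were thus higher in the same line.

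The calls of 3 further lists depended on replicate 3. Interferon-stimulated genes summed to 340, 344 and 443 RPKM in the C18-4 libraries and to 974, 959 and 233 RPKM in TM4 replicates 1, 2 and 3. Of 47 tested, 4 were higher in C18-4 cells (8.51%, against 12.8% of all genes) and 0 in TM4 cells (14 at an unadjusted limma p under 0.05). Without replicate 3 of both lines 25 were higher in TM4 cells (20 without TM4 replicate 3 alone). The 4 calls in C18-4 cells became 2 when any other library was left out. Ifit1, an antiviral RNA-binding protein, was at 119, 119 and 11.1 RPKM in TM4 cells and at 2.79, 1.73 and 3.60 RPKM in C18-4 cells. Its log2 difference of -4.33 had an SE of 0.90 and was not called with all libraries (limma adjusted p = 0.00594). Genes of the ATF4 stress response summed to 2066, 2071 and 3297 RPKM in C18-4 cells and to 5556, 5488 and 2172 RPKM in TM4 cells. Of 34 tested, 3 were higher in TM4 cells (8.82%, against 6.38% of all genes). The count was 28 without replicate 3 of both lines, 7 without TM4 replicate 3 alone and 1 when any other library was left out. Cell cycle and DNA replication genes summed to 5273, 5138 and 4832 RPKM in C18-4 cells and to 2978, 2969 and 4130 RPKM in TM4 cells. Of 66 tested, 6 were higher in C18-4 cells (9.09%, against 12.8% of all genes) and 1 in TM4 cells (1.52%, against 6.38%). Without replicate 3 of both lines 30 were higher in C18-4 cells. Without TM4 replicate 3 alone 28 were higher in C18-4 cells and 2 in TM4 cells. The 6 calls in C18-4 cells fell to 0 when any other library was left out. For these lists the line difference seen in replicates 1 and 2 was smaller or turned in replicate 3, and what set replicate 3 apart was not tested. The fit without replicate 3 of both lines also called 2383 and 1468 of all 11810 genes higher in C18-4 and TM4 cells. Replicates 1 and 2 differed little beyond the sampling of reads, so the p-values of that fit measure a spread that may be technical.

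Regional transcription factors marked both lines. Of 34 Hox genes tested, 10 were higher in TM4 cells (29.4%, against 6.38% of all genes) and 3 in C18-4 cells (8.82%, against 12.8%). With 1 library left out the counts were 7 to 10 and 2 to 3. Hoxa11, a gene of the posterior HoxA cluster, was at 22.02, 21.7 and 25.6 RPKM in TM4 cells and listed at 0 in C18-4 cells. Hoxc11 was at 10.6, 13.2 and 7.64 RPKM in TM4 cells and again listed at 0 in C18-4 cells. Within the HoxD cluster, genes that are not direct neighbours went opposite ways. Hoxd10 was at 9.63, 10.01 and 11.6 RPKM in TM4 cells against 0.38, 0.35 and 0.36 RPKM. Hoxd13 was at 4.23, 4.24 and 4.87 RPKM in C18-4 cells against 0, 0 and 0.02 RPKM. Of 69 other developmental factors, 25 were higher in C18-4 cells (36.2%) and 19 in TM4 cells (27.5%). Lhx2, a LIM homeobox factor, was at 8.52, 8.57 and 9.69 RPKM in C18-4 cells against 0, 0 and 0.07 RPKM. Tbx3, a T-box factor, was at 12.5, 12.2 and 34.8 RPKM in TM4 cells and at 0.01 RPKM in each C18-4 library. Emx2, a homeobox factor of the urogenital ridge, was at 37.6, 36.5 and 23.4 RPKM in TM4 cells against 1.85, 2.26 and 2.05 RPKM. Each line thus expressed a set of patterning factors that the other nearly lacked.

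Imprinted genes were higher in C18-4 cells in 8 of 22 tested (36.4%, against 12.8% of all genes). In TM4 cells 1 was higher (4.55%, against 6.38%), or 2 without replicate 3 of either line. Igf2, a fetal growth factor, was at 8.97, 8.56 and 13.1 RPKM in C18-4 cells, Cdkn1c, a cyclin kinase inhibitor, was at 4.15, 5.07 and 8.35 RPKM, and Peg3, a zinc finger protein, was at 13.7, 15.4 and 17.1 RPKM. All 3 were listed at 0 in every TM4 shNC library, as Grb10 nearly was. These genes could thus pass the filter only through C18-4 cells, and their part of the count was fixed in advance. The exception was Peg10, a retroelement-derived gene, which was higher in TM4 cells with a log2 difference of -2.45.

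Single metabolic genes differed strongly between the lines. Gsta4, a glutathione transferase for lipid aldehydes, was at 674, 626 and 463 RPKM in C18-4 cells and at 2.23, 2.45 and 2.80 RPKM in TM4 cells, a 236-fold ratio. Its neighbour Gsta1 was at 46.3, 43.8 and 39.3 RPKM in C18-4 cells and listed at 0 in TM4 cells, though close copies of Gsta1 make its value uncertain. Of 51 NRF2 and glutathione genes tested, 10 were higher in C18-4 cells (19.6%, against 12.8% of all genes). In TM4 cells 9 were higher (17.6%, against 6.38%). The counts were 6 and 5 without C18-4 replicate 2 and 7 and 5 without C18-4 replicate 1. Slc16a3, a lactate exporter, was at 46.6, 46.0 and 54.9 RPKM in C18-4 cells against 0.18, 0.20 and 0.54 RPKM, a 160-fold ratio. Ldhb, the lactate dehydrogenase subunit of oxidative tissues, was at 14.4, 13.2 and 21.8 RPKM in TM4 cells against 0.76, 0.48 and 1.33 RPKM. Aldh1a1, a retinaldehyde dehydrogenase, was at 86.0, 83.2 and 79.5 RPKM in C18-4 cells against 1.12, 0.82 and 0.65 RPKM, a 96.0-fold ratio. Of 32 genes of glycolysis and lactate, 3 were higher in C18-4 cells (9.38%, against 12.8% of all genes) and 6 in TM4 cells (18.8%, against 6.38%). Without TM4 replicate 3 the counts were 6 and 8. The median of the list was -0.83 relative to all genes.

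The genes on which the study centred were then read at baseline. Phldb2, a cortical microtubule-anchoring protein, was at 78.2, 79.7 and 83.4 RPKM in C18-4 cells and at 50.2, 51.4 and 29.9 RPKM in TM4 cells. Its groups did not overlap, but its log2 difference of 0.92 (SE 0.21, limma adjusted p = 0.00915) did not meet the call. Of 18 tested genes of Phldb2 and its partners, 2 were higher in each line (11.1%, against 12.8% and 6.38% of all genes), with 1 in TM4 cells when any C18-4 library was left out, and the largest of these 4 differences was in Prickle1, a planar polarity protein, at 10.1, 9.77 and 7.23 RPKM in TM4 cells against 0.01, 0.14 and 0.03 RPKM. Of 12 tested genes of the muscarinic receptors and the Gq pathway 0 were higher in C18-4 cells (5 at an unadjusted limma p under 0.05). In TM4 cells 1 was higher (8.33%, against 6.38% of all genes). Without TM4 replicate 3 the counts were 1 and 2. Chrm5, the gene of M5 itself, was at 0 to 0.01 RPKM in all 6 libraries.

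A gene was also counted as listed in one line only where it was at 1 RPKM or more in all 3 libraries of that line and at 0.05 RPKM or less in all 3 of the other. There were 371 such genes in C18-4 cells and 124 in TM4 cells, and 33 and 12 of them reached 20 RPKM in every library of their line. Among promoters in the table, 59.6% of 267 of these genes in C18-4 cells and 32.6% of 86 in TM4 cells had a CpG ratio of at least 0.6. The limits were met in the shM5 libraries too by 300 and 101 of the genes.

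The line difference was then read in the shM5 libraries of the same lines, which share no library with the shNC comparison. There 1852 genes were higher in C18-4 cells (15.7% of those tested) and 1137 in TM4 cells (9.63%). Of the 1511 and 754 genes called with shNC, 1362 (90.1%) and 707 (93.8%) were called again in the same direction and 0 in the other. The sign was the same for 1510 of the 1511 and all 754. Upk3b, Wt1 and Tex19.1 differed by log2 values of 12.49, 8.24 and 9.43 with shNC, and Wt1 and Tex19.1 by 8.44 and 9.70 with shM5. In the fit of all 12 libraries, the line difference itself differed between shNC and shM5 for 13 genes (0.11%) at an adjusted p of at most 0.05 from limma.

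The differences were not spread evenly over the chromosomes. Each chromosome's median log2 difference was taken relative to the median of all genes tested, with 20 chromosomes compared and no test made, since neighbouring genes are not replicates. Chromosome 11 had the highest value, 0.50 over 979 genes, and it lay between 0.46 and 0.54 in all 9 pairs of a C18-4 and a TM4 library. On it 225 genes were higher in C18-4 cells and 35 in TM4 cells. Chromosomes 18 and 19 followed at 0.24 and 0.19. The lowest values were -0.41 over 569 genes of chromosome 3, -0.40 over 394 genes of the X chromosome and -0.31 over 642 genes of chromosome 8. On chromosome 3, 46 genes were higher in C18-4 cells (8.08%) and 56 in TM4 cells (9.84%). The sign held under each of 9 settings for every chromosome except 5 and 7, whose values were 0.02 and -0.03. In the shM5 libraries the values were 0.51 for chromosome 11, -0.35 for chromosome 3, -0.35 for X and -0.33 for chromosome 8.

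**Figure D4:**
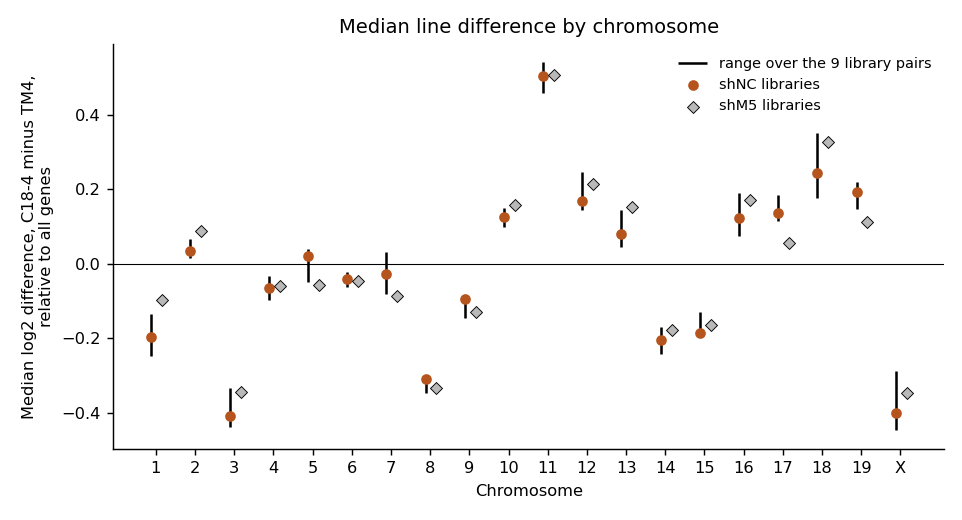
Median log2 difference (C18-4 minus TM4) of the genes of each chromosome relative to the median of all genes tested. Circles show the shNC value, vertical lines the range over the 9 pairs of shNC libraries, and diamonds the shM5 libraries. Chromosome 11 is highest at 0.50, and chromosomes 3, X and 8 are lowest at -0.41, -0.40 and -0.31.

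The shift of chromosome 11 ran along its whole length. When the tested genes of each chromosome were cut in genomic order into 234 blocks of about 50 genes, all 20 blocks of chromosome 11 had a median above that of all genes, from 0.21 to 1.05. The highest was the block from Slc39a11 to Rnf157, in which 27 of 49 genes were higher in C18-4 cells and 1 in TM4 cells. The next 2 blocks, which reach the last tested gene of the chromosome, Metrnl, stood at 0.89 and 0.98. All 11 blocks of chromosome 3 lay below that of all genes, from -0.53 to -0.19, as did all 13 of chromosome 8 and all 8 of X. Chromosome 2 was divided, with its first 7 blocks between -0.56 and -0.12 and its ninth to eleventh blocks at 0.78, 0.61 and 0.97. In the last of these, from Bahd1 to Catsper2, 23 of 49 genes were higher in C18-4 cells and 0 in TM4 cells, where 1 was higher at an unadjusted limma p under 0.05. In the shM5 libraries these 3 blocks stood at 0.71, 0.57 and 0.86.

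**Figure D5:**
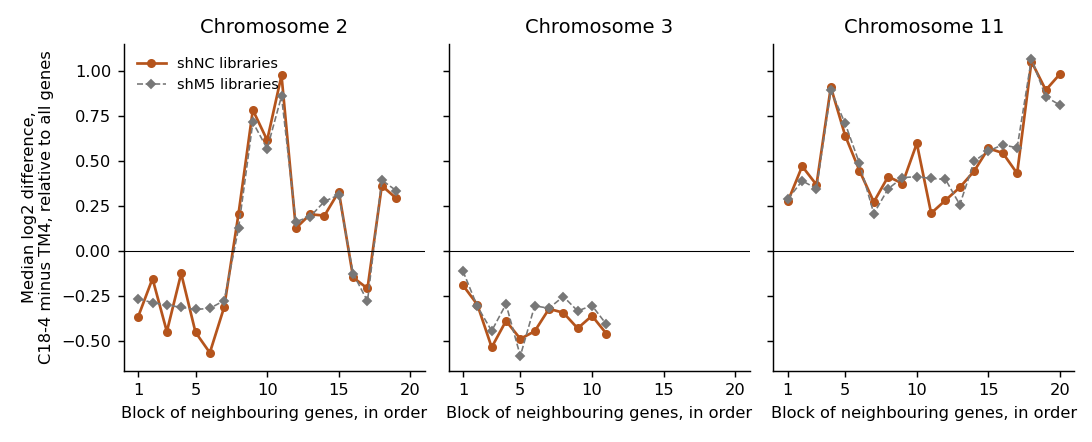
Median log2 difference (C18-4 minus TM4) relative to all genes tested in blocks of about 50 neighbouring genes, in genomic order along chromosomes 2, 3 and 11, with shNC and shM5 libraries shown separately. All 20 blocks of chromosome 11 lie above 0, all 11 of chromosome 3 lie below 0, and chromosome 2 changes from below to above 0 along its length.

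Called genes also formed runs of direct neighbours among the genes tested. On chromosome 11 the 5 genes Slc16a3, Csnk1d, Tex19.1, Uts2r and Ogfod3 were all higher in C18-4 cells, so that Tex19.1 and Slc16a3, described above, lie close together. On chromosome 15 the 6 genes Lynx1, Gml, Ly6e, Ly6a, Ly6c1 and Ly6c2 were all higher in TM4 cells. Of these, Ly6e, which restricts viral entry, was at 392, 377 and 512 RPKM in TM4 cells and at 3.27, 3.63 and 4.79 RPKM in C18-4 cells, a 110-fold ratio. Ly6e was named after its values were seen. The longest runs of all, 12 genes of chromosome 13 higher in C18-4 cells and 9 of chromosome 14 higher in TM4 cells, were of predicted genes except 1, whose near-identical copies may share reads, so their values are uncertain.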

How the data were processed

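The lines C18-4 and TM4 were profiled by RNA-seq with shNC or shM5, 3 libraries each, and group and replicate number came from the sample labels. Polyadenylated RNA was captured with oligo(dT), read on an Illumina HiSeq instrument and mapped to reference genes with SOAPaligner, and the authors turned each gene's read number into the deposited RPKM values, with 2 decimals for 17995 genes. The genome build and annotation are not given in the sources used here. RPKM holds no read numbers, so no count test was run and no interval for counting error is given. A gene and its antisense partner or close copies cannot be told apart.

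log2(RPKM + 0.1) of the 6 shNC libraries was fitted with limma 3.58.1 in R 4.3.3 (eBayes with trend, no block), C18-4 minus TM4, for all genes that averaged 0.5 RPKM or more. Left out were 1340 genes at 0 in all 6 libraries and 4845 others. p-values were adjusted by Benjamini-Hochberg over all 11810 genes, two-sided. The shM5 libraries were fitted in the same way, and an interaction term was fitted over all 12 libraries. The fit was tested on simulated data. A list is described by its counts, its summed RPKM over all measured members and its median log2 difference, relative to that of all genes where said, with no test of the list. A gene near 0 in one line could pass the filter only through the other line, so its direction was fixed in advance. The counts of several lists include such genes. Tables were made in Python 3.11.15 with pandas 2.3.3.

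The comparison and the gene lists were chosen with earlier results of these data known. Named genes are the 15 in each direction with the largest difference among called, non-overlapping genes with at least 20 RPKM in the higher line, the markers of both lines, and the leading called members of the other lists, with further members of short lists named by role. Cxcl1, Id3, Ifit1, Ly6e, Met and Stag3, and the genes that bound blocks or form runs, were chosen after their values were seen. Entrez identifiers matched 17874 genes of a RefSeq table of GRCm38.p6, which gave chromosome and gene order only, and 121 did not match. Promoters were matched by identifier, the first entry being used where a gene had several. Transcript lengths for the comparison of replicates came from genes with 1 transcript in GENCODE M21.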

Additional observations from a re-analysis of the deposited data

Results flagged for a closer look

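In a limma fit of all 12 libraries, the difference between the lines was itself different with shM5 and with shNC for 13 genes at an adjusted p of at most 0.05, tested as an interaction. The values below are the log2 line difference (C18-4 minus TM4) with shM5 minus that with shNC. For the lower ones the mean in C18-4 cells was lower with shM5. The mean in TM4 cells was higher with shM5 for these genes except Slpi and Gng12. For Rcn3 the means with shNC and shM5 were 119.5 and 91.05 RPKM in C18-4 cells and 109.9 and 138.9 RPKM in TM4 cells.

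Slpi, a secreted protease inhibitor, changed by -2.52, from a line difference of -4.54 to -7.06, with a mean in C18-4 cells of 2.40 RPKM with shNC and 0.33 RPKM with shM5 and in TM4 cells of 57.3 and 55.2 RPKM. Mmp9, a gelatinase, changed by -2.27 and Fmod, the proteoglycan fibromodulin, by -2.11, both from means under 2.5 RPKM in every group. LOC105244034 changed by -1.77, Gm40595 by -1.20 and Gm46620 by -0.92, and these 3 are predicted genes whose values are uncertain. Fndc4, an FNDC family protein, changed by -1.01, Rcn3, a calcium-binding protein of the endoplasmic reticulum, by -0.73, and Gng12, a G protein γ subunit, by -0.63.

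The other 4 changed upward. Peg3 changed by 1.14, from a line difference of 7.27 to 8.41, with a mean in C18-4 cells of 15.4 RPKM with shNC and 34.1 RPKM with shM5, and it was listed at 0 in every TM4 library. Dusp16, a MAP kinase phosphatase, changed by 0.99, Mzt1, a γ-tubulin ring protein, by 0.80, and Krt80, a keratin, by 0.77. The library labelled TM4 shNC 3 lay nearer to the TM4 shM5 libraries than to the other TM4 shNC libraries. The number of such genes was 7048 without replicate 3 of every group, when the libraries left in a group differed little beyond the sampling of reads. The part of TM4 shNC 3 in the 13 genes was not tested.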

How the results depend on the processing

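None of the 337 called genes on the lists changed sign under any of 17 alternatives, while 112 of the 592 listed genes that were not called did. Of 356 called genes, those of the lists and the named ones, 208 were called under all of the alternatives that could test them. Counts of genes in C18-4 and TM4 cells were within 1.5 times of 1511 and 754 under other pseudocounts, filters and scalings, without trend and with all 12 libraries in 1 fit. In a fit that took the replicate number as block (replicate block) they were 710 and 311, of which 693 and 311 were called again with shM5. Libraries with the same number did not deviate together (correlations across genes of -0.22, -0.20 and -0.30). Replicates 1 and 2 of a line are nearly alike, and C18-4 replicate 1 with TM4 replicate 2 gave -0.22, and 2 with 1 gave -0.21. These values therefore cannot tell whether replicates 1 and 2 are paired by number. Leaving out 1 library gave 937 to 2046 and 450 to 1078 genes, the lowest without C18-4 replicate 2 or 1 and the highest without TM4 replicate 3, and 923 to 1421 and 441 to 750 called again with shM5. Without replicate 3 of both lines the counts were 2383 and 1468, and with replicates 1 and 2 averaged 819 and 370. At an adjusted p of at most 0.05 they were 2209 and 1191, without the fold limit 4095 and 2422, and by the ratio of means alone 2267 and 1297. Genes listed in one line only were 112 and 51 at 5 RPKM. The 13 genes with an interaction became 34 at a pseudocount of 1, 1 with the replicate block and 7048 without replicate 3 of every group. The value of chromosome 11 was 0.45 at a pseudocount of 1 and 0.46 over genes with at least 10 RPKM in both lines, and that of chromosome 3 was -0.35 with shM5 and -0.32 over such genes. The causes were not tested.

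Each line is 1 line in its own medium, replicates 1 and 2 of a line are nearly alike, and RPKM with 2 decimals does not separate absent genes from very low ones.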
